A study of Mus musculus with 31 samples.

Results

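The cytochromes P450 of families Cyp1, Cyp2 and Cyp3 were taken as all genes whose single symbol in the platform annotation consists of the family number, 1 subfamily letter and a gene number. The rule gave 57 of the 22180 genes measured, with 3 in family Cyp1, 47 in Cyp2 and 7 in Cyp3. They fall into 16 subfamilies, of which Cyp2c holds 14 members, Cyp2d 9, Cyp2j and Cyp3a 7 each, Cyp2b 5, Cyp2a 4 and Cyp1a 2, and the other 9 hold 1 member each. Each gene was read from its brightest probe set, judged by the mean of the 31 arrays, in RMA log2 signal units. RMA is the array summary that corrects background, equalises the arrays and puts each probe set on a log2 scale, so a difference of 1 is a 2-fold change.

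Cytochromes P450 are heme enzymes of the endoplasmic reticulum that insert 1 oxygen atom into their substrate with electrons from P450 reductase and cytochrome b5. In liver, families Cyp1 to Cyp3 carry out most of phase I metabolism, the oxidation that precedes conjugation and excretion of drugs, pollutants and plant compounds, and several members also act on steroids, bile acids, vitamin D and arachidonic acid. Transcription of Cyp1 genes is driven by the aryl hydrocarbon receptor AHR, and that of many Cyp2b, Cyp2c and Cyp3a genes by the nuclear receptors CAR (Nr1i3) and PXR (Nr1i2). Growth hormone makes some mouse Cyp2 and Cyp3 genes differ between the sexes, and many members are more abundant around the central vein than around the portal tract.

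Livers came from male C57BL/6 mice of 3 to 4 months, 1 array per mouse, collected in the morning. The Fed-Fed-Fast mice (n = 8) had 0 earlier fasts and a final fast of 16 h, whereas the Fed-Fed-Fed mice (n = 8) ate freely throughout. The Fast-Fast-Fast mice (n = 7) had 2 earlier fasts of 16 h within 8 weeks and then the final 16 h fast, and the Fast-Fast-Fed mice (n = 8) had the same 2 earlier fasts but were sampled fed. All groups thus share sex, strain, age range and tissue, and no drug or inducer was given. The final fast was tested within each history, and history within each final state, by a limma fit over all 4 groups. Called genes are those with a p under 0.05 after Benjamini-Hochberg adjustment across the 22180 genes, and "higher" or "lower" without a qualifier refers to called genes.

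The arrays had medians of 2.01 to 2.07, and each array's median correlation with the others was 0.970 to 0.977. Fed-Fed-Fast replicate 5 stood apart from the other fasted livers on the first principal component, at 36.8 against 14.4 to 27.9, and without it 18 in place of 19 members were called in the mice with 0 earlier fasts. The 11 hepatocyte markers measured averaged 7.34 to 12.99, and their summed level was 15.3 to 15.4 on the log2 scale in all 4 groups. Of these 11, 3 were higher and 2 lower with 0 earlier fasts, from -0.22 for Ttr to 0.37 for Tat, and 2 were higher and 1 lower with 2, from -0.19 for Fgb to 0.30 for Hnf4a. Of 12 Kupffer cell markers, 8 were lower in Fed-Fed-Fast than in Fed-Fed-Fed livers and 4 were lower in Fast-Fast-Fast than in Fast-Fast-Fed livers. Their summed log2 level was 8.50 to 9.60 in Fed-Fed-Fast and 8.99 to 10.4 in Fed-Fed-Fed livers, and 8.63 to 9.45 in Fast-Fast-Fast and 8.72 to 10.1 in Fast-Fast-Fed livers. Of 12 stellate cell and fibroblast markers, 1 was higher and 3 lower with 0 and 0 were higher and 3 lower with 2 earlier fasts, and of 12 endothelial markers 1 was higher and 1 lower in each history. All 10 neutrophil and monocyte markers and all 9 muscle markers lay at or below the median gene. Fewer cells of a type and less RNA per cell cannot be told apart in whole liver, and the part of these markers in the results below was not tested.

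The Cyp2c cluster on chromosome 19 held members that rose and members that fell, so the promoters of 5 of its genes are shown: 2 that rose (Cyp2c39, Cyp2c38), their close relative Cyp2c29, which fell, and the 2 members that fell most (Cyp2c55, Cyp2c70). Each covers 250 bases before and 50 after the gene's start, 5′ to 3′ on the gene's strand, as given by RefSeq for GRCm38.p6. Capitals mark the nuclear receptor half-site AGGTCA, the FoxO site GTAAACA and the TATA box TATAAA wherever these letters stand on either strand. These names are labels for the letters. Which factor, FoxO or another, could bind the letters GTAAACA was not tested.
Cyp2c39, chr19:39347096-39347395, plus strand: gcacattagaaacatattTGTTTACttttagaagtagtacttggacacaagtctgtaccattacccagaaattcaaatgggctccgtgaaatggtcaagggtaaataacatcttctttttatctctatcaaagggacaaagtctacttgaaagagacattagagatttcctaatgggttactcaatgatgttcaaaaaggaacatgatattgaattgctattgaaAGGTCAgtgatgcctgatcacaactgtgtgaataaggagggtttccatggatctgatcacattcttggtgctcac
Cyp2c38, chr19:39463026-39463325, minus strand: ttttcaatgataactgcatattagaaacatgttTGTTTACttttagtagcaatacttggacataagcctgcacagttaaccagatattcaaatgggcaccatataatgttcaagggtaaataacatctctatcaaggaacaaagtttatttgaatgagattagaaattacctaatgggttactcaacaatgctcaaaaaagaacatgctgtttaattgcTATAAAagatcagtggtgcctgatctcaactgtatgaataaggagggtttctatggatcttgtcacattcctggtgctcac
Cyp2c29, chr19:39286835-39287134, plus strand: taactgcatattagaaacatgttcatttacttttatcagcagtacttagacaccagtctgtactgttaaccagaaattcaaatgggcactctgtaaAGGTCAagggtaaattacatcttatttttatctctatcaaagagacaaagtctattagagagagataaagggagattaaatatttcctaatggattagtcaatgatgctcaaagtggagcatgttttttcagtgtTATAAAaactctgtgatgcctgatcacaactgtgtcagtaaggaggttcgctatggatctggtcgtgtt
Cyp2c55, chr19:39006769-39007068, plus strand: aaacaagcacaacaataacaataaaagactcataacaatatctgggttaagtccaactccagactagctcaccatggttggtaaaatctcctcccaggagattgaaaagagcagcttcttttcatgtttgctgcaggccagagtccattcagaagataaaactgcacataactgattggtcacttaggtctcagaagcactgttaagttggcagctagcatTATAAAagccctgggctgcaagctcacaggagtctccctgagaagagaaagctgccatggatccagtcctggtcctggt
Cyp2c70, chr19:40187237-40187536, minus strand: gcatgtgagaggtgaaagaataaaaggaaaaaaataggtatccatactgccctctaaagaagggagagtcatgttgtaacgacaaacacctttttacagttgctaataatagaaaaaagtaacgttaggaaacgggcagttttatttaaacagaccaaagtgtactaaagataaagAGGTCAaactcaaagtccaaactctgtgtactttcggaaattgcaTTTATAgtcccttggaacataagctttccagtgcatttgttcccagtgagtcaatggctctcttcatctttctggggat
The promoters of Cyp2c38 and Cyp2c39 hold the FoxO letters on the minus strand, at positions -217 to -211 and -232 to -226 from the start, and read as TGTTTAC above. In Cyp2c29 the aligned letters are catttac, which do not match the motif. Over all columns of a global alignment, the Cyp2c38 and Cyp2c39 promoters were 78.1% identical, Cyp2c29 and Cyp2c39 75.7%, and Cyp2c29 and Cyp2c38 70.8%, against a median of 53.3% over the 66 pairs of the 12 Cyp2c promoters available.

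A promoter was available for 49 of the 57 members. Where 2 starts were listed, as for 3 members, the most upstream was taken, here and in the promoters above. Which start the measured transcripts use was not tested. The half-site AGGTCA stood in 18 of the 49 (36.7%), against 16.3% of the 32851 mouse promoters of the same length, and the FoxO letters GTAAACA in 6 (12.2%), against 3.65%. The TATA letters TATAAA stood in 24 (49.0%), against 13.6%, and the AHR core GCGTG in 9 (18.4%), against 32.4%. The 32851 keep every listed start of a gene, whereas for members only the most upstream was kept. Related members also share promoter sequence, so their counts are not independent, and the differences in share were not tested. The 6 members with FoxO letters were Cyp2c38, Cyp2c39, Cyp2j5, Cyp3a11, Cyp3a16 and Cyp3a44. Of these, 2 rose with the final fast, Cyp2j5 fell and the 3 Cyp3a genes were not called. The AGGTCA letters stood in 3 of 8 promoters of members that rose in either history, in 5 of 10 of members that fell and in 10 of 31 of members called in neither. A match is a match of letters, and nothing was measured here about binding.

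With 0 earlier fasts, the final fast changed 19 of the 57 members (33.3%), against 12.5% of all genes tested. Of these, 7 were higher in Fed-Fed-Fast than in Fed-Fed-Fed livers, against 6.25% of all genes, and 12 were lower, against 6.23% of all genes. With 2 earlier fasts, 19 of 57 were again called, against 11.6% of all genes, 6 of them higher in Fast-Fast-Fast than in Fast-Fast-Fed livers (6.06% of all genes) and 13 lower (5.52% of all genes). The median member changed by -0.07 on the log2 scale with 0 and by -0.05 with 2 earlier fasts, against -0.00364 and -0.000403 for the median of all genes. The median absolute change of the members was 0.26 and 0.21, against 0.098 and 0.10 over all genes. In each history 11 of the 57 members (19.3%) had fasted and fed groups that did not overlap in a single animal, against 4.28% of all genes with 0 and 4.37% with 2 earlier fasts.

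**Figure D1:**
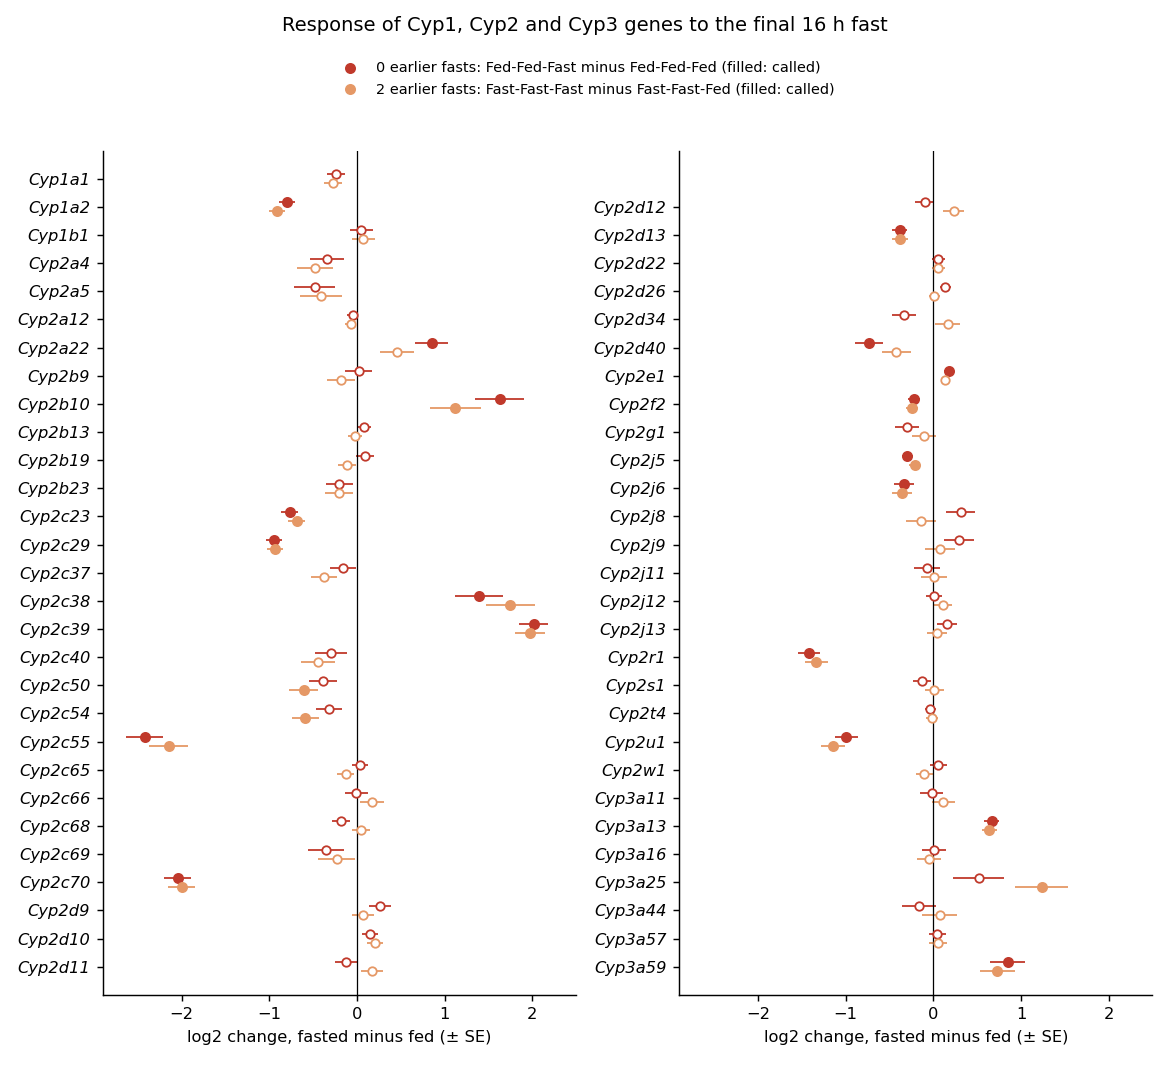
Log2 change (± SE, limma) of each of the 57 genes with the final 16 h fast, fasted minus fed, in mice with 0 earlier fasts (red, Fed-Fed-Fast minus Fed-Fed-Fed, n = 8 and 8) and with 2 earlier fasts (orange, Fast-Fast-Fast minus Fast-Fast-Fed, n = 7 and 8); filled points were called. Changes run from -2.42 for Cyp2c55 to 2.01 for Cyp2c39, and most genes lie near 0.

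All called members were among the 35 whose mean over the arrays lay above the median gene, 2.26 log2 units. The other 22, which include Cyp1a1, Cyp1b1, Cyp2b9, Cyp2b13, Cyp2g1 and Cyp3a16, changed by -0.33 to 0.31 in mice with 0 and by -0.28 to 0.23 in mice with 2 earlier fasts, and none was called. The arrays carried no detection calls used here, so for these dim genes an unchanged value and a signal at background cannot be told apart.

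Among the members that rose, Cyp2c39, which hydroxylates retinoic acid in the mouse, rose most. Its lowest, median and highest signals were 5.28, 5.75 and 6.21 in Fed-Fed-Fast livers, against 3.41, 3.68 and 4.24 in Fed-Fed-Fed livers. They were 5.30, 5.69 and 6.37 in Fast-Fast-Fast livers, against 3.29, 3.87 and 4.40 in Fast-Fast-Fed livers. Every fasted liver lay above every fed one in both histories. The change was 2.01 ± 0.17 (SE), or 4.04-fold, with 0 earlier fasts (adjusted p = 3.41e-11) and 1.97 ± 0.17, or 3.93-fold, with 2 (adjusted p = 1.48e-10). Cyp2c38, an arachidonic acid oxidase next to it on the chromosome, had lowest, median and highest signals of 8.72, 9.21 and 10.00 in Fed-Fed-Fast livers, against 7.25, 8.07 and 8.36 in Fed-Fed-Fed livers. With 2 earlier fasts these were 8.55, 9.56 and 10.21 in Fast-Fast-Fast livers, against 6.66, 7.98 and 8.57 in Fast-Fast-Fed livers. The groups did not overlap with 0 earlier fasts, whereas with 2 the 2 lowest fasted livers lay just below the highest fed one. Cyp2c38 rose 2.63-fold (1.39 ± 0.27 log2, adjusted p = 0.00028) and 3.36-fold (1.75 ± 0.28 log2, adjusted p = 2.12e-05).

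Cyp2b10, the classical CAR target gene of mouse liver, was the only called member of its subfamily. It had signals of 4.15, 5.03 and 5.88 (lowest, median, highest) in Fed-Fed-Fast livers, against 2.25, 3.57 and 4.26 in Fed-Fed-Fed livers. In Fast-Fast-Fast livers it had 3.48, 4.79 and 5.56, against 2.77, 3.38 and 4.47 in Fast-Fast-Fed livers. Fasted livers were mostly higher, but the groups overlapped in both histories. The rise was 3.09-fold with 0 earlier fasts (1.63 ± 0.28 log2, adjusted p = 4.71e-05) and 2.18-fold with 2 (1.12 ± 0.29 log2, adjusted p = 0.00655). The 4 other Cyp2b genes, among them the female-predominant Cyp2b9 and Cyp2b13 and the epidermal Cyp2b19, were dim and were not called. Cyp2b9 changed by 0.02 and -0.18, Cyp2b13 by 0.08 and -0.02, on the log2 scale with 0 and with 2 earlier fasts.

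In the Cyp3a subfamily, which oxidises steroids and many drugs, 2 of 7 members were higher with 0 and 3 of 7 with 2 earlier fasts, and none was lower. Over all genes, 6.25% and 6.06% were higher. Cyp3a16, Cyp3a44 and Cyp3a57 were dim, so a fall there could be missed. How far Cyp3a probes also report a related gene was not tested. Cyp3a13 had lowest, median and highest signals of 8.52, 8.84 and 9.01 in Fed-Fed-Fast livers, against 7.91, 8.18 and 8.30 in Fed-Fed-Fed livers. In mice with 2 earlier fasts it had 8.48, 8.77 and 8.95 in the Fast-Fast-Fast group, against 7.89, 8.09 and 8.35 in the Fast-Fast-Fed group. All fasted livers lay above all fed livers in both histories, and the rise was 1.59-fold (0.67 ± 0.08 log2, adjusted p = 2.3e-07) and 1.56-fold (0.64 ± 0.09 log2, adjusted p = 1.17e-06). Cyp3a59 rose 1.8-fold with 0 (adjusted p = 0.00227) and 1.66-fold with 2 earlier fasts (adjusted p = 0.0133), with overlapping groups in both. Cyp3a11, the main PXR-induced Cyp3a enzyme of mouse liver, had signals of 8.72, 9.19 and 9.57 in Fed-Fed-Fast livers, against 8.97, 9.19 and 9.50 in Fed-Fed-Fed livers, and was not called. Its change was -0.02 with a 95% interval of -0.28 to 0.24 with 0 and 0.11 (-0.15 to 0.38) with 2 earlier fasts, on the log2 scale. Probe sets that the annotation assigns to Cyp3a11 together with Cyp3a41a, Cyp3a41b and Cyp3a44 changed by 0.036 and 0.0081 with 0 earlier fasts and by 0.054 and 0.115 with 2, and were not called either.

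Cyp3a25, another hepatic member of that subfamily, varied widely between animals in the Fast-Fast-Fed group. Its signals were 7.84, 9.14 and 9.58 (lowest, median, highest) in Fed-Fed-Fast livers, against 7.76, 8.56 and 9.06 in Fed-Fed-Fed livers. They were 8.37, 8.79 and 9.37 in Fast-Fast-Fast livers, against 5.78, 7.63 and 8.59 in Fast-Fast-Fed livers. The Fast-Fast-Fed group had the widest spread of any group of these 57 genes (SD 0.94), with 2 low livers, and it overlapped with the fasted group. The rise of 1.24 ± 0.30 log2 with 2 earlier fasts was called (adjusted p = 0.00401), that of 0.52 ± 0.29 with 0 was not (adjusted p = 0.322), and the difference between the responses, 0.72 ± 0.42, was not called (adjusted p = 0.999).

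The 2 remaining members that rose did so in mice with 0 earlier fasts alone, and for neither did the test of the difference between histories pass. Cyp2a22 had 3.26 ± 0.49 (SD) in Fed-Fed-Fast and 2.41 ± 0.37 in Fed-Fed-Fed livers, a change of 0.85 ± 0.19 (adjusted p = 0.00135), against 0.46 ± 0.19 with 2 earlier fasts (adjusted p = 0.146). Its signals ran from 2.62 to 3.89 in Fed-Fed-Fast and from 1.98 to 2.93 in Fed-Fed-Fed livers, so the groups overlapped. The fed signals lay near the median gene, 2.26. Cyp2e1, the pericentral enzyme that oxidises ethanol and acetone, had 12.38, 12.43 and 12.56 (lowest, median, highest) in Fed-Fed-Fast livers, against 12.17, 12.29 and 12.33 in Fed-Fed-Fed livers. Those groups did not overlap, although the rise was only 1.13-fold (0.17 ± 0.05 log2, adjusted p = 0.0137). With 2 earlier fasts the change was 0.14 ± 0.05 (adjusted p = 0.0872). It was called when dim genes were left out or a variance trend was fitted (lowest adjusted p = 0.0158 over 39 settings).

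**Figure D2:**
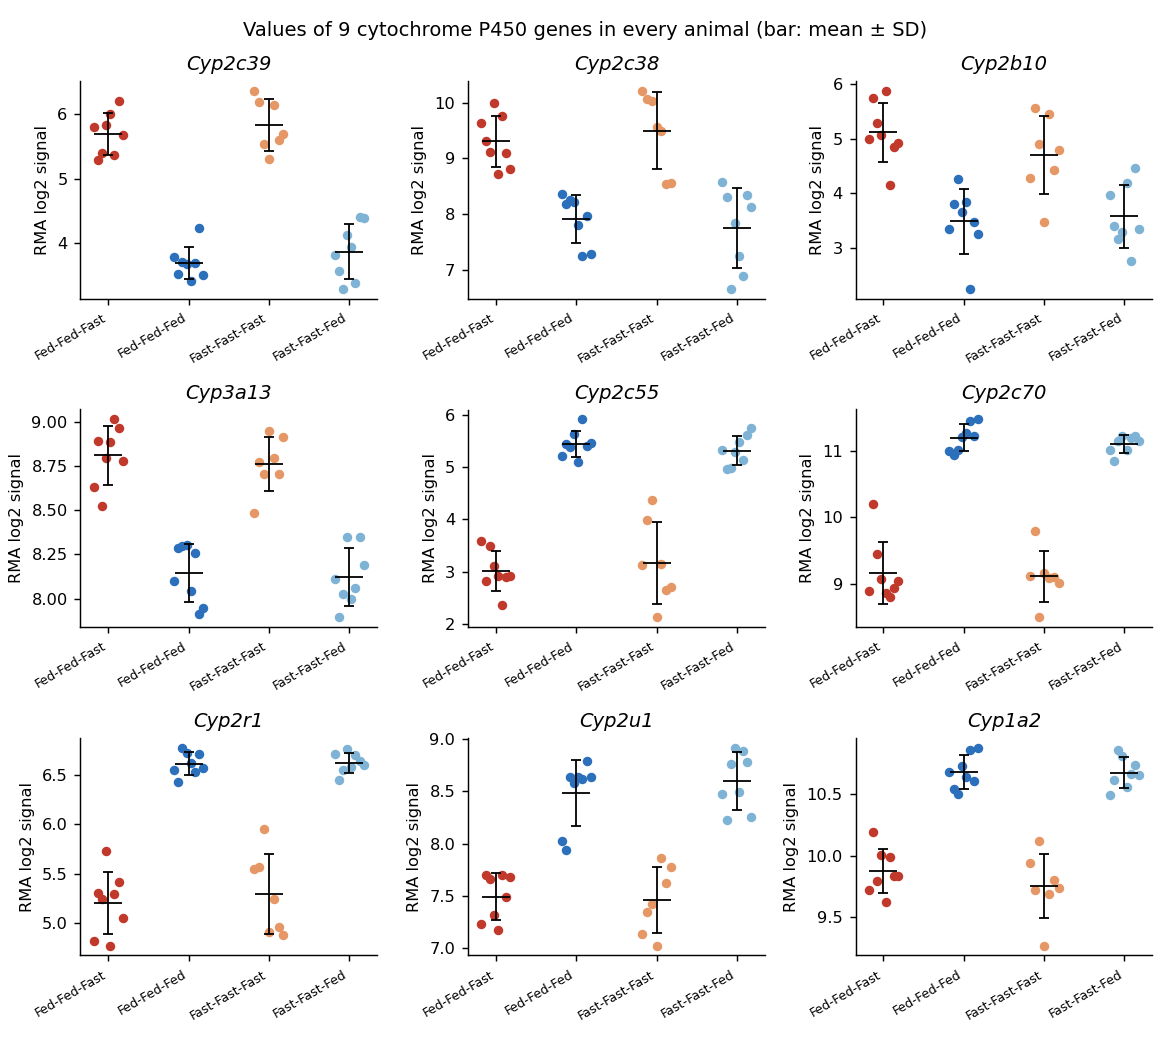
RMA log2 signals of 9 genes in every animal, with 1 point per mouse and the group mean ± SD, for Fed-Fed-Fast (n = 8), Fed-Fed-Fed (n = 8), Fast-Fast-Fast (n = 7) and Fast-Fast-Fed (n = 8). The vertical axes differ between panels and do not start at 0. The top row and Cyp3a13 are higher in fasted livers and the other 5 genes lower, in both histories.

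Cyp2c55, an arachidonic acid hydroxylase that CAR and PXR ligands induce in mouse liver, fell most. It had lowest, median and highest signals of 2.36, 2.93 and 3.58 in Fed-Fed-Fast livers, against 5.10, 5.42 and 5.91 in Fed-Fed-Fed livers. In Fast-Fast-Fast livers they were 2.14, 3.13 and 4.37, against 4.97, 5.30 and 5.74 in Fast-Fast-Fed livers. Every fasted liver lay below every fed one. The fall was 5.37-fold (-2.42 ± 0.21 log2, adjusted p = 1.11e-10) with 0 and 4.43-fold (-2.15 ± 0.22 log2, adjusted p = 4.42e-09) with 2 earlier fasts. A second, dimmer probe set of the gene gave smaller changes of -0.85 (adjusted p = 0.00427 over all probe sets) and -0.79 (adjusted p = 0.0132), so its direction was the same and its size was not.

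Cyp2c70, which makes the muricholic acids of mouse bile, was the next. Its signals were 8.79, 8.99 and 10.19 (lowest, median, highest) in Fed-Fed-Fast livers, against 10.95, 11.22 and 11.48 in Fed-Fed-Fed livers. With 2 earlier fasts they were 8.49, 9.09 and 9.80 in the Fast-Fast-Fast group, against 10.85, 11.16 and 11.23 in the Fast-Fast-Fed group. The groups did not overlap in either history, although replicate 2 of the Fed-Fed-Fast group lay well above the rest of that group. Cyp2c70 fell 4.14-fold (-2.05 ± 0.15 log2, adjusted p = 2.07e-12) and 4-fold (adjusted p = 1.07e-11).

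The single members of the subfamilies Cyp2r and Cyp2u fell too. Cyp2r1, the microsomal hydroxylase that starts the activation of vitamin D, had 4.77, 5.26 and 5.73 (lowest, median, highest) in Fed-Fed-Fast livers, against 6.43, 6.59 and 6.78 in Fed-Fed-Fed livers. It had 4.88, 5.24 and 5.95 in Fast-Fast-Fast livers, against 6.45, 6.62 and 6.76 in Fast-Fast-Fed livers. The fed livers were close together and all above the fasted ones, and the falls were 2.66-fold (-1.41 ± 0.13 log2, adjusted p = 1.68e-10) and 2.52-fold (-1.33 ± 0.13 log2, adjusted p = 1.7e-09). Cyp2u1, a hydroxylase of long-chain fatty acids, had 7.17, 7.57 and 7.70 in Fed-Fed-Fast livers, against 7.94, 8.63 and 8.79 in Fed-Fed-Fed livers. It had 7.02, 7.42 and 7.86 in Fast-Fast-Fast livers, against 8.23, 8.63 and 8.92 in Fast-Fast-Fed livers. These groups did not overlap either, and Cyp2u1 fell 1.99-fold (adjusted p = 1.09e-06) and 2.21-fold (adjusted p = 1.63e-07).

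Of family Cyp1, Cyp1a2, the constitutive pericentral enzyme that oxidises caffeine, fell and Cyp1a1 and Cyp1b1 were not called. Cyp1a2 had lowest, median and highest signals of 9.63, 9.83 and 10.19 in Fed-Fed-Fast livers, against 10.50, 10.65 and 10.87 in Fed-Fed-Fed livers. With 2 earlier fasts it had 9.27, 9.74 and 10.12 in Fast-Fast-Fast livers, against 10.49, 10.66 and 10.85 in Fast-Fast-Fed livers. Without overlap in either history, it fell 1.74-fold (-0.80 ± 0.09 log2, adjusted p = 2.96e-08) and 1.89-fold (-0.92 ± 0.09 log2, adjusted p = 4.52e-09). Cyp1a1, the inducible partner that oxidises polycyclic hydrocarbons, had 1.13, 1.26 and 1.55 in Fed-Fed-Fast livers, against 1.16, 1.60 and 1.74 in Fed-Fed-Fed livers. Its changes of -0.24 ± 0.10 (adjusted p = 0.129) and -0.28 ± 0.10 (adjusted p = 0.0812) were at dim signals and crossed the threshold when single fed arrays were left out. Cyp1b1, an enzyme of mainly extrahepatic tissues, changed by 0.05 and 0.07.

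Within Cyp2c, 2 of 14 members were higher and 4 lower with 0 earlier fasts, and 2 were higher and 6 lower with 2. The shares over all genes were 6.25% higher and 6.23% lower with 0, and 6.06% higher and 5.52% lower with 2. Cyp2c29, a CAR-responsive arachidonic acid epoxygenase, had 10.43, 10.57 and 10.93 (lowest, median, highest) in Fed-Fed-Fast livers, against 11.41, 11.60 and 11.66 in Fed-Fed-Fed livers. It had 10.23, 10.66 and 11.01 in Fast-Fast-Fast livers, against 11.40, 11.50 and 11.74 in Fast-Fast-Fed livers. The groups were apart in both histories, with falls of 1.93-fold (-0.95 ± 0.09 log2, adjusted p = 8.03e-10) and 1.91-fold (-0.94 ± 0.09 log2, adjusted p = 3.08e-09). A second probe set of Cyp2c29, near background at a mean of 1.17, was not called, at -0.23 (adjusted p = 0.302 over all probe sets) and -0.20 (adjusted p = 0.447). Cyp2c23, an epoxygenase at some distance from the rest on the same chromosome, fell 1.71-fold (adjusted p = 1.1e-07) and 1.61-fold (adjusted p = 2.06e-06), also without overlap.

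The epoxygenases Cyp2c50 and Cyp2c54, neighbours in the cluster, fell with 2 earlier fasts, with changes of -0.61 ± 0.16 (adjusted p = 0.00927) and -0.59 ± 0.15 (adjusted p = 0.00782) on the log2 scale. With 0 earlier fasts their changes were -0.39 ± 0.16 (adjusted p = 0.113) and -0.32 ± 0.15 (adjusted p = 0.196). Neither interaction was called, so the histories were not shown to differ for this pair. Cyp2c37 had -0.16 ± 0.14 and -0.38 ± 0.15, the female-predominant Cyp2c40 -0.30 ± 0.18 and -0.44 ± 0.19, and Cyp2c68 -0.19 ± 0.10 and 0.04 ± 0.11, with none called. Cyp2c65 and Cyp2c66, known from the intestine, were dim. Cyp2c genes are close relatives in sequence, and how far their probes also report a neighbour was not tested. A probe set shared by Cyp2c67 and Cyp2c68 was lower by 0.38 in Fed-Fed-Fast than in Fed-Fed-Fed livers (adjusted p = 0.00949 over all probe sets) and was not called with 2 earlier fasts (adjusted p = 0.461).

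In RefSeq order, the Cyp2c genes run Cyp2c55, Cyp2c65, Cyp2c66, the pseudogene Cyp2c53-ps, Cyp2c29, Cyp2c39, Cyp2c38, Cyp2c67, Cyp2c68, Cyp2c40, Cyp2c69, Cyp2c37, Cyp2c54, Cyp2c50, Cyp2c70 and Cyp2c23, with further pseudogenes between them. The 2 genes that rose are thus neighbours, with Cyp2c29, which fell, on 1 side. In RefSeq the span of Cyp2c39 overlaps that of Cyp2c38 on the other strand. Cyp2c53-ps, which the rule leaves out, averaged 2.01 ± 0.49 (SD) in Fed-Fed-Fast and 4.56 ± 0.89 in Fed-Fed-Fed livers, and 1.68 ± 0.23 in Fast-Fast-Fast and 4.03 ± 0.67 in Fast-Fast-Fed livers. Its changes of -2.55 (adjusted p = 2.05e-07 over all probe sets) and -2.35 (adjusted p = 2.13e-06) were as large as those of Cyp2c55. The probes were not checked for matches to both.

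**Figure D3:**
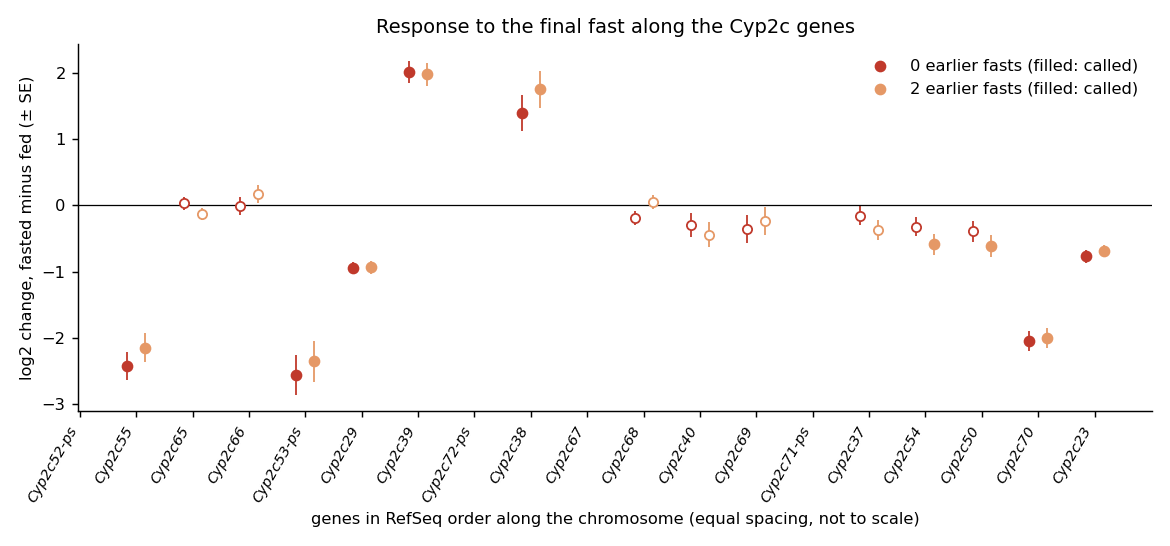
Log2 change with the final fast (± SE), fasted minus fed, of the Cyp2c genes in their RefSeq order along chromosome 19, drawn at equal spacing, with 0 (red) and 2 (orange) earlier fasts; filled points were called, and positions without points had no probe set of their own. Cyp2c39 and Cyp2c38, at 2.01 and 1.39 with 0 earlier fasts, stand between falling or uncalled genes.

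Smaller falls made up the rest. In Cyp2d, whose members oxidise many basic drugs in man, Cyp2d13, a transcribed pseudogene in RefSeq, fell, with changes of -0.38 ± 0.09 (adjusted p = 0.00215) and -0.38 ± 0.09 (adjusted p = 0.0037) on the log2 scale. Cyp2d40 averaged 5.75 ± 0.40 (SD) in Fed-Fed-Fast and 6.48 ± 0.37 in Fed-Fed-Fed livers, a change of -0.73 ± 0.16 (adjusted p = 0.000932), against -0.42 ± 0.16 with 2 earlier fasts (adjusted p = 0.0995). The other 7 Cyp2d genes were not called. Among them Cyp2d9, the male-specific testosterone hydroxylase, had 0.26 ± 0.12 and 0.07 ± 0.13.

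In Cyp2j, whose members epoxidise arachidonic acid, the liver and kidney enzyme Cyp2j5 fell, with changes of -0.30 ± 0.06 (adjusted p = 0.000609) and -0.21 ± 0.06 (adjusted p = 0.0229). Its signals were 10.94, 11.12 and 11.29 (lowest, median, highest) in Fed-Fed-Fast livers, against 11.25, 11.38 and 11.57 in Fed-Fed-Fed livers, so the groups overlapped in a narrow range. With 2 earlier fasts it had 10.97, 11.16 and 11.30 in Fast-Fast-Fast livers, against 11.32, 11.37 and 11.50 in Fast-Fast-Fed livers, without overlap. Cyp2j6 also fell, with changes of -0.34 ± 0.11 (adjusted p = 0.0396) and -0.36 ± 0.11 (adjusted p = 0.0329) and broad overlap of the groups, and these calls were lost when any of several single arrays was left out. Cyp2f2, a periportal enzyme best known for naphthalene oxidation in lung, fell 1.16-fold (adjusted p = 0.0186) and 1.18-fold (adjusted p = 0.0124). A second, dimmer probe set of Cyp2f2 was lower with 0 earlier fasts, by 0.39 (adjusted p = 0.00282 over all probe sets), and at -0.26 was not called with 2 (adjusted p = 0.0839). The call of the main Cyp2f2 probe set with 0 earlier fasts was lost without Fed-Fed-Fast replicate 7, and that of Cyp2j5 with 2 earlier fasts without Fast-Fast-Fast replicate 7 or Fast-Fast-Fed replicate 4. In Cyp2a, the steroid hydroxylase Cyp2a4 had -0.34 ± 0.20 and -0.48 ± 0.21 and the coumarin hydroxylase Cyp2a5 -0.48 ± 0.23 and -0.41 ± 0.24, with none called. Cyp2a12, a bile acid hydroxylase of mouse liver, had -0.05 ± 0.06 and -0.07 ± 0.06, with 95% intervals of -0.17 to 0.07 and -0.20 to 0.06. The single members of Cyp2g, Cyp2s, Cyp2t and Cyp2w were dim and were not called, with changes of -0.30 and -0.11 for the olfactory Cyp2g1, -0.12 and 0.01 for Cyp2s1, -0.04 and -0.02 for Cyp2t4 and 0.06 and -0.10 for Cyp2w1.

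The responses with 0 and with 2 earlier fasts share no animals, although limma's variance estimate is common to both. Of the 57 members, 16 were called in both, 5 higher and 11 lower, and all 16 had the same direction. Cyp2a22, Cyp2d40 and Cyp2e1 were called with 0 earlier fasts alone, and Cyp2c50, Cyp2c54 and Cyp3a25 with 2 alone, and all 22 members called in either had the same sign in both. Across the 57 members, which share arrays and are no replicates, Pearson's r between the 2 log2 changes was 0.951 and Spearman's rho 0.823. The largest difference between the 2 changes among the 16 was 0.51, for Cyp2b10.

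**Figure D4:**
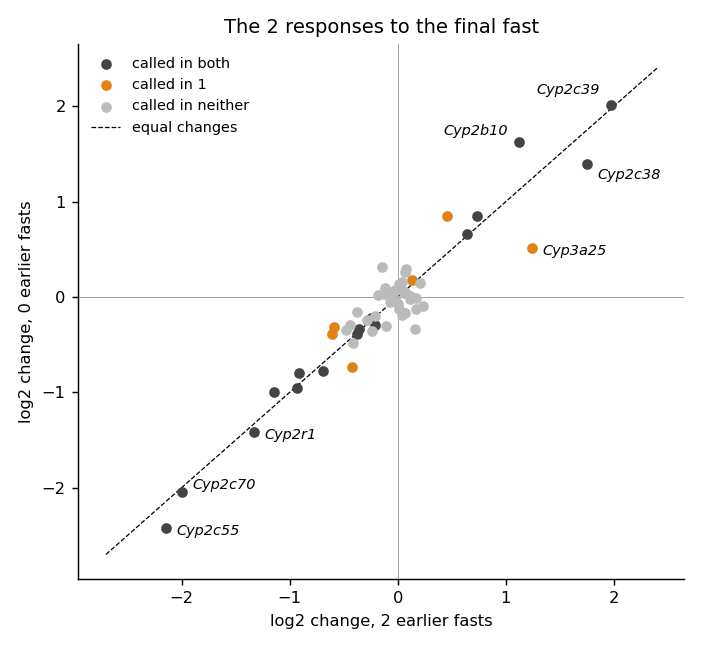
Log2 change, fasted minus fed, for 0 earlier fasts (vertical axis) against that for 2 (horizontal axis), 1 point per gene; dark points were called in both, orange points in 1 and grey points in neither, and the dashed line marks equal changes. The points lie along the line (r = 0.951 over 57 genes), with Cyp3a25 the called gene farthest from it.

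Whether 2 earlier fasts left a trace was asked in fed livers, in fasted livers, as the average of both, and as the interaction of history with the final fast. None of the 57 members was called in any of these 4 comparisons by limma, and neither was any other gene (0% of 22180). No member had groups of different history that did not overlap, against 0.00902% of all genes in fed and 0.0361% in fasted livers. At an unadjusted p under 0.05 there were 3 members in fed livers (5.61% of all genes), 1 in fasted livers (4.49% of all genes), 2 in the average (5.34%) and 2 in the interaction (4.61%). In fed livers these were Cyp3a25, at -0.95 for Fast-Fast-Fed minus Fed-Fed-Fed mice (adjusted p = 0.755), Cyp2j9 (0.38, adjusted p = 0.856) and Cyp2b19 (0.24, adjusted p = 0.856). The next smallest p in fed livers belonged to Cyp2d34 (-0.27) and Cyp2d11 (-0.24). In fasted livers the smallest belonged to Cyp2a22 (-0.43), Cyp2d12 (0.23), Cyp2j8 (-0.33), Cyp2w1 (-0.17) and Cyp2d40 (0.27). In the average they belonged to Cyp3a25 (-0.59), Cyp2j9 (0.27), Cyp2b19 (0.13), Cyp2a5 (-0.30) and Cyp2a22 (-0.23), and in the interaction to Cyp2d34 (0.50), Cyp2d12 (0.33), Cyp2j8 (-0.46), Cyp3a25 (0.72) and Cyp2d11 (0.29). Of the genes named here, Cyp2b19, Cyp2d11, Cyp2d12, Cyp2d34, Cyp2j8 and Cyp2w1 are among the dim members.

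The intervals say how large an effect of history could have been. In fed livers the 95% interval lay within 1.5-fold in either direction for 52 of 57 members, in fasted livers for 48, and in the average for 55. Within 2-fold lay 56 of 57 in each of the 3, and for the interaction 36 lay within 1.5-fold and 54 within 2-fold. These counts include the 22 dim members, for which a narrow interval can also come from a signal at background. For those members the intervals bound the signal and not the transcript. Among the members with the largest responses, Cyp2c55 differed by -0.13 in fed and 0.15 in fasted livers and Cyp2c38 by -0.17 and 0.19. Cyp2c39 differed by 0.17 in fed and 0.13 in fasted livers, Cyp2c70 by -0.09 and -0.05, Cyp2c29 by -0.04 and -0.03, Cyp2r1 by 0.01 and 0.09, Cyp2u1 by 0.12 and -0.04, Cyp1a2 by -0.00 and -0.12, and Cyp2b10 by 0.09 and -0.42. The value of Cyp2b10 in fasted livers was close to the largest there, that of Cyp2a22. None of these differences was called. For the other members followed in every comparison, Cyp1a1, Cyp1b1, Cyp2a4, Cyp2a5, Cyp2b9, Cyp2b13, Cyp2d9, Cyp2e1, Cyp2f2, Cyp2j5, Cyp3a11 and Cyp3a13, the differences lay between -0.33 (Cyp2a5, fed livers) and 0.13 (Cyp3a11, fasted livers). These history comparisons use the same animals as the responses above.

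**Figure D5:**
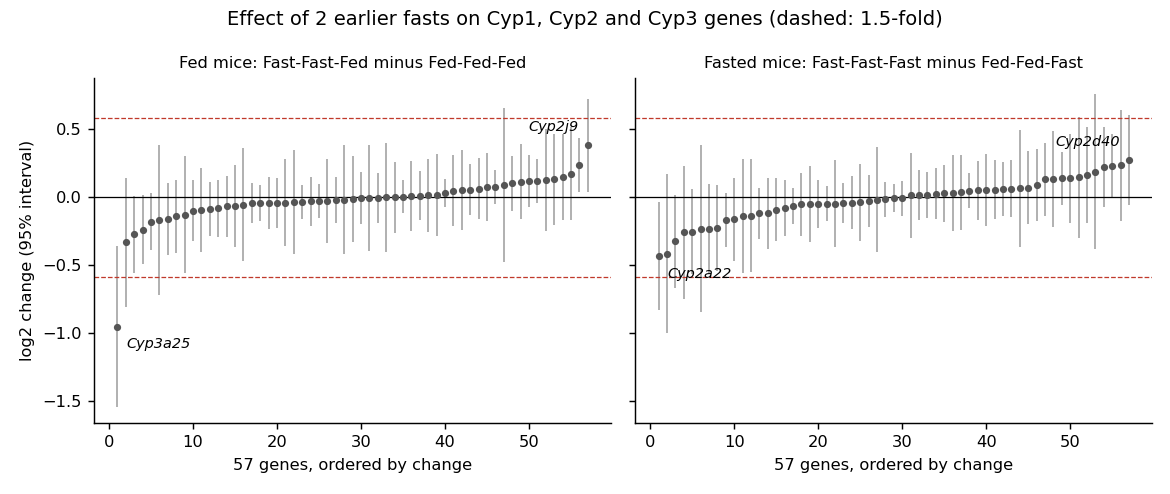
Log2 difference between mice with 2 and with 0 earlier fasts (95% intervals) for the 57 genes, ordered by size, in fed mice (left, Fast-Fast-Fed minus Fed-Fed-Fed) and in fasted mice (right, Fast-Fast-Fast minus Fed-Fed-Fast); dashed lines mark 1.5-fold. Most intervals lie between the lines, for 52 genes in fed and 48 in fasted mice, and Cyp3a25 in fed mice lies farthest from 0 at -0.95.

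The receptors that control these genes were measured on the same arrays. CAR (Nr1i3) averaged 9.29 ± 0.14 (SD) in Fed-Fed-Fast and 7.90 ± 0.22 in Fed-Fed-Fed livers, and 9.12 ± 0.37 in Fast-Fast-Fast and 7.97 ± 0.16 in Fast-Fast-Fed livers. It was thus higher by 1.39 (adjusted p = 1.75e-11) and 1.15 (adjusted p = 3.45e-09) on the log2 scale. PXR (Nr1i2) was higher by 0.46 (adjusted p = 0.000823) and 0.50 (adjusted p = 0.000517), while Ahr changed by -0.02 (adjusted p = 0.968) and 0.12 (adjusted p = 0.706). Of 29 measured regulators of xenobiotic metabolism, 8 were higher and 4 lower with 0 earlier fasts and 7 higher and 3 lower with 2, with median changes of 0.03 and 0.12. Of 20 CAR and PXR target genes outside Cyp2 and Cyp3, 5 were higher and 7 lower with 0 and 4 higher and 6 lower with 2 earlier fasts, with median changes of -0.04 and 0.0049. Gadd45b (2.99 and 2.88), a stress response gene, and the organic anion carrier Slco1a4 (1.38 and 1.00) were among the higher, and the glutathione transferase Gstm3 (-1.82 and -1.56) among the lower. Of 6 measured AHR target genes outside Cyp1, 1 was higher, the quinone reductase Nqo1 (0.65 and 0.57), and 1 was lower in each history.

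Of 18 measured genes that supply electrons or heme to P450 enzymes, 2 were higher and 7 lower with 0 and 2 higher and 5 lower with 2 earlier fasts. Alas1, the rate-limiting enzyme of heme synthesis, averaged 9.87 ± 0.51 (SD) in Fed-Fed-Fast and 9.03 ± 0.65 in Fed-Fed-Fed livers and was higher by 0.84 (adjusted p = 0.03) and, with 2 earlier fasts, by 1.26 (adjusted p = 0.0012). Cpox, a later enzyme of that pathway, was higher by 0.83 and 0.88. The electron carriers Cyb5b (-1.45 and -1.19), Cyb5r3 (-0.76 and -0.72) and Fdx1 (-0.75 and -0.85) were lower in both histories. Which P450 enzymes these carriers serve was not tested, and P450 reductase was not analysed. Electron supply to the members of Cyp1 to Cyp3 was thus not assessed. Between histories, CAR differed by 0.06, PXR by 0.07, Ahr by -0.09 and Alas1 by -0.54 in fed livers, and by -0.18, 0.11, 0.05 and -0.12 in fasted livers, in the same order, and none was called.

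Members were also grouped by the sex bias and the zone known for them in mouse liver. Over all genes, 6.25% were higher and 6.23% lower with 0 earlier fasts, and 6.06% were higher and 5.52% lower with 2. Of 10 members with female-biased expression, 2 were higher in both histories, Cyp2c39 and Cyp2b10, and none was lower. The median change of the 10 was -0.079 with 0 and -0.080 with 2 earlier fasts, and 5 and 7 of them had negative changes. Among these were Cyp2a4, Cyp2c40 and Cyp2c69, which were negative in both histories but not called. Cyp2b9, Cyp2b13, Cyp2g1, Cyp3a16 and Cyp3a44 among the 10 were dim in these male livers, so a fall there could be missed. Of 26 other female-biased liver genes measured, 10 were higher and 2 lower with 0 and 9 higher and 1 lower with 2 earlier fasts. Several of the 26 were dim, such as A1bg (1.29 in Fed-Fed-Fed livers) and Hao2 (1.27), so falls could be missed there too. All lists here were chosen with earlier results of these data known, so their counts are no independent comparison. Of 4 male-biased members, Cyp2u1 was lower in both histories and Cyp2c54 with 2 earlier fasts, whereas Cyp2d9 and the dim Cyp2d11 were not called. Of 26 other male-biased genes measured, 0 were higher and 20 lower with 0 and 1 was higher and 14 lower with 2 earlier fasts. Of 9 pericentral members, Cyp2e1 was higher and Cyp1a2 and Cyp2c29 were lower with 0 earlier fasts, and Cyp1a2, Cyp2c29, Cyp2c50 and Cyp2c54 were lower with 2. Of 31 other pericentral genes measured, 6 were higher and 10 lower with 0 and 8 higher and 10 lower with 2 earlier fasts. Cyp2f2, the 1 periportal member, was lower in both, whereas of 24 other periportal genes 8 were higher and 1 lower with 0 and 7 higher and 2 lower with 2 earlier fasts.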

How the data were processed

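Liver RNA (100 ng per sample, biotin label) of 31 mice was hybridized to Affymetrix whole-transcript arrays, per the labels' protocols. The deposited log2 values were made by the authors with RMA, per the submitters' processing notes, in a version not given in the sources used here, and their number of arrays limits the precision. RMA equalises arrays, so a change common to all genes would not show. Of 41345 probe sets, 23521 had 1 gene symbol in the platform annotation, 1814 several and 16010 none. The probe set with the highest mean stood for each of 22180 genes, with no filter on low values. RefSeq, in its GRCm38.p6 annotation, matched all 57 members by Entrez identifier and gave gene order and promoters.

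A single limma model (version 3.58.1, R 4.3.3, with the data.table package, version 1.17.8) covered the 4 groups, as group means with moderated variances, 2-sided, adjusted by Benjamini-Hochberg over all genes. The labels describe each sample as coming from a mouse of its own and give no batch. Tables and figures were made with Python 3.11.15, pandas 2.3.3 and matplotlib 3.10.9, and the fit was tested on simulated data. Members and gene lists were chosen with earlier results of these data known. Named are the called members with the 12 largest rises and falls, the largest change of a subfamily, 19 members of known role, the 5 smallest p of a comparison without calls, members whose probe sets disagree, and up to 4 called genes of a list with Ahr, Nr1i2, Nr1i3 and Alas1. The P450 reductase gene was not analysed here. Alternatives were a replicate block, only the groups compared, a filter on dim genes, a variance trend, robust variances, the mean of probe sets, cyclic loess, subtracted array medians and each array left out.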

Additional observations from a re-analysis of the deposited data

Results flagged for a closer look

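In groups of 7 or 8 arrays, a value was picked out when its gap to the nearest other value, divided by the range of the group, passed Dixon's 95% critical value. Of 228 groups of values, 14 (6.14%) passed, and chance passes about 1 in 20. Among members that changed with the final fast, Cyp2c70 was high in Fed-Fed-Fast replicate 2 (10.19), Cyp2c39 was high in Fed-Fed-Fed replicate 7 (4.24) and Cyp2e1 was low in Fed-Fed-Fed replicate 2 (12.17). Cyp2c54 was low in Fed-Fed-Fast replicate 5 (8.85), Cyp2c50 in Fast-Fast-Fast replicate 4 (7.79), Cyp3a59 in Fast-Fast-Fast replicate 1 (5.06) and Cyp2f2 in Fast-Fast-Fed replicate 1 (11.60).

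The other 7 values belong to dim genes. Fed-Fed-Fast replicate 1 was high for Cyp2c66 (2.30), Cyp2s1 (2.41) and Cyp3a16 (2.46), and Fed-Fed-Fast replicate 5 for Cyp2b13 (1.57). Fed-Fed-Fed replicate 5 was high for Cyp2c66 (2.09), Fast-Fast-Fed replicate 5 for Cyp1b1 (2.41) and Fast-Fast-Fed replicate 8 for Cyp2b23 (2.80). None of the 14 was left out of the comparisons.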

How the results depend on the processing

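No change of a member that the text names turned its direction when called, and the counts stayed close to 19. With each array left out in turn, 17 to 20 members were called with 0 and 18 to 19 with 2 earlier fasts, and 0 in every history comparison. With only the groups compared, the counts were 17 and 20, with a filter on dim genes 19 and 20, with a variance trend 19 and 20, and with subtracted array medians 19 and 18. Robust variances, the mean of probe sets and cyclic loess gave 19 and 19. Of the 19 members called in each history, 17 were called under all 39 settings. The exceptions were Cyp2f2 and Cyp2j6 with 0 earlier fasts and Cyp2j5 and Cyp2j6 with 2.

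The labels number the replicates, but not every same-numbered pair of arrays from different groups deviated together (median r 0.046 over 45 pairs, from -0.12 to 0.19, against a median of -0.0037 for other pairs). Of 31 arrays, 11 matched best with an array of their own number, a hint from the data and not from the design. How many would match so by chance was not worked out. With the replicate block, 18 and 19 members were called, and 0 in the history comparisons. Cyp2j6 lost its call in both histories with the replicate block, and Cyp2a4 gained one with 2 earlier fasts (adjusted p = 0.0148). The cause of these changes was not tested. Some calls depended on arrays: Cyp2j6 lost its call without any of Fed-Fed-Fast replicates 3, 5, 6, 7 or 8 or Fed-Fed-Fed replicates 5, 6 or 8, and, with 2 earlier fasts, without Fast-Fast-Fast replicates 1, 3 or 4 or Fast-Fast-Fed replicates 3, 4 or 7. Cyp2e1 gained a call with 2 earlier fasts under the filter on dim genes and the variance trend. Cyp1a1 gained one without Fed-Fed-Fed replicate 5 or Fast-Fast-Fed replicates 3 or 4, Cyp2c37 without Fast-Fast-Fast replicate 3, Cyp2c50 with 0 earlier fasts without Fast-Fast-Fast replicate 4 and Cyp2d40 with 2 without Fast-Fast-Fast replicate 1. The number of arrays and the low signal of 22 members limit what could be detected.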

Other observations

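Phase I enzymes outside these families changed in both directions. Of 35 measured flavin monooxygenases, carboxylesterases, alcohol, aldehyde and aldo-keto enzymes and the like, 8 were higher and 17 lower in each history, with a median change of -0.26 with 0 and -0.30 with 2 earlier fasts. The flavin monooxygenase Fmo2 was higher by 1.72 and 1.42 log2 units, the carbonyl reductase Cbr1 by 1.09 and 1.24, and the fatty aldehyde dehydrogenase Aldh3a2 by 1.15 and 1.14. The aldehyde oxidase Aox3 (-1.39 and -1.18), the alcohol dehydrogenase Adh4 (-1.22 and -1.27) and the carboxylesterase Ces1g (-1.02 and -1.25) were lower.

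Of 35 measured P450 genes of other families, 6 were higher and 6 lower with 0 and 9 higher and 3 lower with 2 earlier fasts. The fatty acid hydroxylase Cyp4a14 averaged 12.14 ± 0.11 (SD) in Fed-Fed-Fast and 5.64 ± 1.84 in Fed-Fed-Fed livers, and the steroid hydroxylase Cyp17a1 9.36 ± 0.50 and 5.65 ± 0.64. Cyp51, the sterol demethylase, averaged 5.45 ± 0.31 and 8.14 ± 0.24, and Cyp26a1, which breaks down retinoic acid, 1.62 ± 0.30 and 3.73 ± 0.89. Cyp26a1 was thus lower by 2.11 (adjusted p = 4.33e-06) with 0 earlier fasts, where Cyp2c39, also a retinoic acid hydroxylase in the mouse, was higher by 2.01. A relation between these changes was not tested.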
